A study of Mus musculus with 6 samples.

Results

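Non-cycling cells with little Cdkn1a RNA were examined in cultures of mouse muscle-derived stem/progenitor cells (MDSPCs). The cells were selected on their measured RNA. Barcodes with 5000 or more unique molecular identifiers (UMIs, tags that let each captured RNA molecule be counted once) and under 15% of UMIs from mitochondrial genes were eligible. A cell was chosen when 10 genes of the G2 and M phases of the cell cycle (Top2a, Cdk1, Ube2c, Cenpf, Mki67, Ccnb2, Cdc20, Birc5, Tpx2 and Hmmr) together gave 2 or fewer UMIs and Cdkn1a gave fewer than 2 UMIs per 10000. Of 60325 eligible cells, 5049 met the rule, or 8.37%. They are called Cdkn1a-low cells here, always meaning the non-cycling ones. The rest of each sample comprised non-cycling Cdkn1a-high cells (9556 in all) and cells with 3 or more UMIs of the 10 genes (45720 in all), called G2/M-positive cells.

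The study compared 3 MDSPC populations from young mice with 3 from old mice, each of them 1 sample. MDSPCs are the slowly adhering cells left after skeletal muscle is dissociated with enzymes and the suspension is moved repeatedly between collagen-coated flasks. All 6 populations were grown in proliferation medium before single-cell 3′ RNA sequencing, so none was placed in a medium that induces differentiation. The labels give no age in weeks, sex or strain, and they do not say whether a population is 1 clone or whether its cells came from 1 mouse or from several. They call the populations biological replicates, and p-values measure the spread between these 6 samples.

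A dividing cell passes through G1, S, G2 and M, and it can leave the cycle from G1 into a reversible resting state, into permanent senescence or into differentiation. Cdkn1a encodes p21, an inhibitor of cyclin-dependent kinases that the tumour suppressor p53 induces after damage and that myoblasts raise when they exit the cycle to form muscle fibres. Genes of G2 and mitosis are kept off in G0 and early G1 by a repressor complex that contains the pocket proteins p107 and p130. A cell with few G2/M transcripts is therefore not necessarily arrested, since a cycling cell in G1 or early S also holds few of them.

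The deposited matrices held between 8912 and 12808 barcodes a sample, of which between 8444 and 12179 were eligible. Eligible cells had median depths between 13181 and 20111 UMIs. Values for a sample are given below in the order of replicates 1, 2 and 3. The Cdkn1a-low cells were shallower than the other cells of the same sample in all 6 samples. Their median depth was 11602, 13291.5 and 11210 UMIs for the young populations and 10400, 12568 and 10864 UMIs for the old ones, against 14462.5, 16741 and 16124.5 UMIs and 13832, 20192 and 13747.5 UMIs in the other cells. A shallow cell reaches 3 G2/M UMIs less easily, so the rule was also applied after each cell was thinned at random to 5000 UMIs, with the values given below. At 5000 UMIs any Cdkn1a UMI reaches the Cdkn1a limit, so only cells with no Cdkn1a UMI left pass. The limit of 2 G2/M UMIs admits more cells at that depth. The thinned rule thus differs from the rule at full depth in both limits. Summed over the Cdkn1a-low cells, a sample held between 1373944 UMIs (old replicate 2, 112 cells) and 22222888 UMIs (old replicate 3, 1963 cells). The same barcode sequence occurred in 2 or more samples for 3 Cdkn1a-low and 417 eligible barcodes.

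The Cdkn1a-low cells numbered 1410, 534 and 601 for the young populations and 429, 112 and 1963 for the old ones. As a share of eligible cells this was 16.7%, 5.01% and 5.65% for the young populations and 4.33%, 1.32% and 16.1% for the old ones. With the rule applied at 5000 UMIs per cell the shares were 17.2%, 7.57% and 10.9% in the young populations and 6.48%, 2.10% and 25.7% in the old, a difference of -0.46 points. Young replicate 1 and old replicate 3 were high and old replicate 2 was low, and the groups overlapped over nearly their whole range. The mean share was 9.12% ± 6.57 (SD, n = 3) for the young populations and 7.25% ± 7.82 (SD, n = 3) in the old samples. The difference of -1.87 percentage points was smaller than the spread within either group (two-sided exact permutation test, p = 0.5, where the smallest p that 3 samples against 3 allow is 0.1). Without old replicate 3 the difference was -6.30 points. It was 1.92 points without young replicate 1 and 1.10 points without old replicate 2, so single populations set its size and direction. The files use a pair of gene lists, and among the 4 samples with the longer list the difference was 3.38 points.

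The share did not follow the size of the non-cycling pool. All non-cycling cells made up 42.4%, 24.1% and 7.61% of the young and 13.5%, 43.2% and 21.6% of the old samples. Within that pool, Cdkn1a-low cells were 39.4%, 20.8% and 74.3% for the young populations and 32.0%, 3.04% and 74.5% for the old ones. Old replicate 2, with the largest non-cycling pool, thus had the smallest Cdkn1a-low share of it. Young replicate 3 and old replicate 3, the samples with the largest Cdkn1a-low part of the pool, were also the samples in which G2/M-positive cells held the least Cdkn1a RNA, at 119 and 85.9 counts per 1000000 (CPM) against 329 to 1218 CPM in the other 4.

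**Figure D1:**
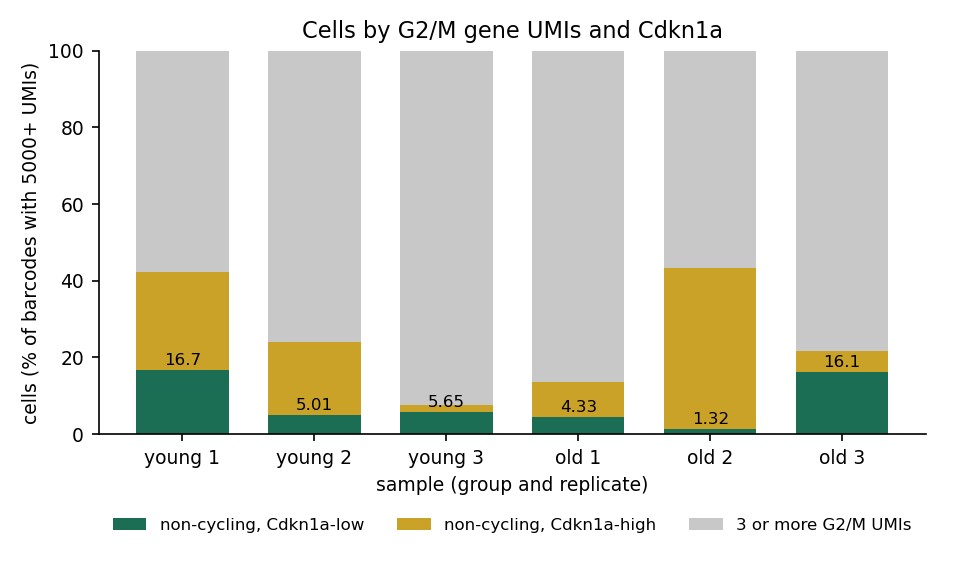
Share of eligible cells (y axis, percent) in each of the 6 samples (x axis), stacked as non-cycling Cdkn1a-low, non-cycling Cdkn1a-high and G2/M-positive cells; the printed number is the Cdkn1a-low share. It runs from 1.32% in old replicate 2 to 16.7% in young replicate 1, and young and old samples overlap.

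Near the limits of the rule the cells formed a continuum. Of the 5049 cells, those with exactly 2 G2/M UMIs numbered 275, 151 and 211 for the young populations and 149, 23 and 548 for the old ones. Just outside, cells with 3 G2/M UMIs and as little Cdkn1a numbered 166, 124 and 165 for the young populations and 128, 20 and 420 for the old ones. Cells with Cdkn1a between 1 and 2 per 10000 UMIs numbered 676, 265 and 122 for the young populations and 178, 55 and 149 for the old ones, and non-cycling cells with 2 to 3 per 10000 numbered 591, 256 and 62 and 188, 73 and 106. At full depth, which differs between cells, no Cdkn1a UMI was found in 30.2%, 28.5% and 57.4% of the Cdkn1a-low cells of the young samples. In the old samples the shares were 37.8%, 33.0% and 88.2%. Old replicate 3 stood apart in this respect.

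Whether the cells were outside S phase, which the rule did not ask, was checked with 45 genes of DNA replication. At an equal depth of 5000 UMIs a Cdkn1a-low cell held a median of 2, 3 and 5 S-phase UMIs for the young populations and 5, 3 and 2 for the old ones, against 9, 9 and 14 and 13, 8 and 10 in G2/M-positive cells. Between 2.55% (old replicate 3) and 9.56% (old replicate 1) of the Cdkn1a-low cells exceeded the G2/M-positive median of their sample. Most of the cells thus held few S-phase transcripts and a minority held as many as G2/M-positive cells. These measures cannot tell cells that left the cycle from cycling cells in G1, so non-cycling is used here only as the name of the rule. S-phase UMIs per cell averaged the same in both age groups (3.33 ± 1.53, SD, n = 3 each, of the sample medians, exact permutation p = 1.0).

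Against all other cells of the same sample, the Cdkn1a-low cells differed mainly by what they lacked. Counts were summed over the cells of each kind in each sample and expressed in CPM, and a log2 ratio of the 2 sums was taken after adding 1 CPM, which understates the ratio of genes of low level. A gene was counted when its ratio passed 1.5-fold in the same direction in all 6 samples. Of 7961 measured genes (a mean of 10 CPM or more over the sums, the genes of the rule left out), 215 were lower by this measure (2.70%) and 0 were higher (0.0%). The rule itself split the cells, so these counts describe the split and carry no test. For scale, 11.9% of the genes were higher and 19.6% lower by any amount in all 6 samples.

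The genes lowest in the Cdkn1a-low cells belonged to mitosis and to the S/G2 transition although none was part of the rule. Ccna2, the cyclin A2 that drives S phase and mitotic entry, was at 0.867, 0.848 and 3.06 CPM for the young populations and 2.58, 0.728 and 1.71 CPM for the old ones. The other cells held 40.4, 62.7 and 103 CPM and 62.1, 29.98 and 80.3 CPM, a log2 ratio of -4.58 ± 0.39 (SD over 6 samples). Cenpe, a motor protein of the kinetochore, was at 1.25 to 3.22 CPM against 34.4 to 93.3 CPM (-4.36 ± 0.47). Nusap1, a spindle protein, stood at -4.31 ± 0.56, and Aurkb, a kinase of the chromosomal passenger complex, at -4.13 ± 0.54. The other leading genes were Esco2, which acetylates cohesin in S phase, Depdc1a, Aspm, Kif15, Ccnb1, Cep55, Nuf2 and Aurka, with means between -4.34 and -3.56. Of 43 measured G2/M genes outside the rule, 39 were past 1.5-fold lower and 42 were lower in all 6 samples, with a median log2 ratio of -3.19. Over all measured genes these shares were 2.70% and 19.6%, and the median was -0.01. With the rule applied at 5000 UMIs per cell the ratios were smaller, at -3.15 for Ccna2 and -2.25 for Kif15 (-3.66 with the rule at full depth). In that setting 156 genes were past 1.5-fold lower, 144 of them among the 215. Thinning changes what both limits admit along with depth, and the part of each was not tested.

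The promoters of these genes were compared with the rest because cell cycle genes of this kind often carry a cell cycle homology region (CHR), an element through which the pocket-protein repressor is known to act. RefSeq promoters of 300 bases, from 250 before to 50 after the annotated start on build GRCm38.p6, were searched on both strands for TTTGAA (CHR), CCAAT (the box bound by NF-Y) and TTTGGCGC or TTTCCCGC (E2F). Where several promoters were listed for a gene, only the first was searched. Of the 215 lower genes, 168 had a promoter in the table. TTTGAA was found in 38.7% of these, against 11.3% of the 6400 measured genes with a promoter. Over all 27025 genes in the table TTTGAA was found in 18.1%. It was found in 63.4% of 41 promoters of the other G2/M genes, in 15.2% of 33 promoters of the S-phase genes and in 8.96% of 770 promoters of genes higher in all 6 samples. The E2F letters showed another order, with 33.3% of the S-phase promoters, 2.44% of the other G2/M promoters and 3.34% of those of measured genes. They were found in 9.52% of the promoters of the lower genes and 1.43% of those of genes higher in all 6 samples. CCAAT was present in 61.3% of the lower genes and 38.6% of the measured genes. The genes of the rule themselves had TTTGAA in 88.9% of 9 promoters. The 215 genes came from a split of the cells on those genes, so their share of CHR letters is not an independent result. A match to so short a word is a description of the letters and not a mapped binding site, and the part of a repressor was not tested.

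The 4 leading lower genes with an entry are shown, 5′ to 3′ on the strand of the gene, since they show how the matches lie near the start. Capitals mark every match to the 3 motifs on either strand. Depdc1a (chr3:159495183-159495482, plus strand) has the CHR letters in reverse 16 bases before the start, behind a CCAAT box 39 bases before it. Aspm (chr1:139454523-139454822, plus strand) has them 6 bases after the start, with 3 reversed CCAAT boxes upstream. Kif15 (chr9:122950831-122951130, plus strand) has a CHR 234 bases and a reversed CHR 19 bases before the start, and the latter adjoins a reversed E2F match. Cenpe (chr3:135212313-135212612, plus strand) has a CCAAT box 12 bases before the start and no TTTGAA, although it was as low as the others.
Depdc1a: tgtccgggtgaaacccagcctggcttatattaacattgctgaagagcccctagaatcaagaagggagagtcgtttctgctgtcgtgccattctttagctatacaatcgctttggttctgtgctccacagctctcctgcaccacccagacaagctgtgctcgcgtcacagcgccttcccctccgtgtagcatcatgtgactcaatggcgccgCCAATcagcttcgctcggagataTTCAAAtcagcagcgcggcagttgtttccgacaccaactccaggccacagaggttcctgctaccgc
Aspm: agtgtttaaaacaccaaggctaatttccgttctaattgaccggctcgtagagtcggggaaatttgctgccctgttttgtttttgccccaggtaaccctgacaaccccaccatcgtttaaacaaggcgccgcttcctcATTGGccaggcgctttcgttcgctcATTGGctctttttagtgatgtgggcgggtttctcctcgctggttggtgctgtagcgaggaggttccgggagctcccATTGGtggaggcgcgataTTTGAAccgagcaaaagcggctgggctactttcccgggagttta
Kif15: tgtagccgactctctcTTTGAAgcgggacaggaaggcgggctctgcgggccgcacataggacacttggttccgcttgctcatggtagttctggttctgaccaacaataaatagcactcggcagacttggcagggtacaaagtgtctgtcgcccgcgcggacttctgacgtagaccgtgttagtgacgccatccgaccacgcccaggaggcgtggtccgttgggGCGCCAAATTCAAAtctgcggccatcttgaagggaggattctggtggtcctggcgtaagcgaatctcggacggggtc
Cenpe: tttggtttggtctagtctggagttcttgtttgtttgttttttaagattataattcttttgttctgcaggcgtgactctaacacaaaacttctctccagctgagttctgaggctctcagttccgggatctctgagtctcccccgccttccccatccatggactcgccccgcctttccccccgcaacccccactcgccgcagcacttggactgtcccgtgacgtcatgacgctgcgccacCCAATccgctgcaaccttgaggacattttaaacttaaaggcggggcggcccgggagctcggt

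**Figure D2:**
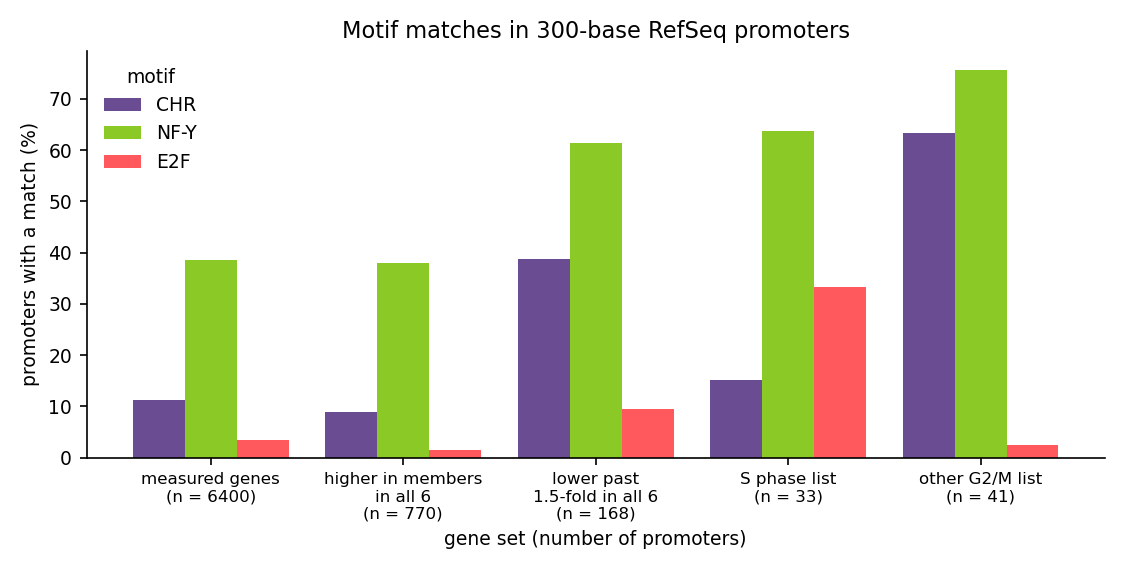
Percentage of 300-base RefSeq promoters (y axis) that hold a CHR, NF-Y or E2F motif on either strand, for 5 gene sets (x axis, with the number of promoters; members are the Cdkn1a-low cells). CHR matches are most frequent in the other G2/M genes (63.4%) and E2F matches in the S-phase genes (33.3%).

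S-phase genes were lower too, but less deeply. Of 38 measured, 24 were past 1.5-fold lower and 34 were lower in all 6 samples, with a median log2 ratio of -1.37. Over all measured genes these shares were 2.70% and 19.6%. Mcm5, a subunit of the replicative helicase, was at 5.15, 3.67 and 14.7 CPM for the young populations and 11.4, 5.09 and 3.60 CPM for the old ones, against 22.0, 20.6 and 42.1 CPM and 42.8, 13.0 and 21.0 CPM in the other cells. Its relative Mcm2 stood at -0.90 ± 0.51. Pcna, the sliding clamp of DNA polymerase, was at 47.0 to 106 CPM against 99.7 to 178 CPM and lower in all 6 samples. Ccne2, a cyclin of the G1/S transition, was at -1.88 ± 0.77.

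Genes of G1 progression did not follow. Of 9 measured, none was past 1.5-fold in all 6 samples, 2 were higher and 1 was lower by any amount in all 6, and their median log2 ratio was -0.08. Of all measured genes, 2.70% were past 1.5-fold lower, and by any amount 11.9% were higher and 19.6% lower. With 9 genes these counts do not set the list apart from all measured genes. Ccnd1, the cyclin D1 that couples growth signals to the cycle, was at 558, 127 and 342 CPM for the young populations and 784, 328 and 255 CPM for the old Cdkn1a-low cells, against 507, 132 and 404 CPM and 781, 329 and 322 CPM in the other cells. Neither kind of cell held more Ccnd1 in all 6 samples. Ccnd2 was higher in all 6 samples, at a mean log2 ratio of 0.34 ± 0.23, and Myc was at 0.03 ± 0.18. Ccnd3 was higher in 3 samples and lower in 3 (-0.14 ± 0.30).

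The other inhibitors of cyclin-dependent kinases and the pocket proteins were listed together with E2f and Lin genes. Of 10 measured genes on this list, 0 were higher in all 6 samples and 3 were lower. For scale, 11.9% of all measured genes were higher and 19.6% lower in all 6. Cdkn1b, which encodes p27, the inhibitor most often tied to quiescence, was at 9.16, 23.6 and 44.8 CPM for the young populations and 11.4, 18.9 and 11.8 CPM for the old Cdkn1a-low cells, against 10.6, 28.3 and 40.0 CPM and 15.8, 17.5 and 13.4 CPM in the other cells. Cdkn2d, an INK4 inhibitor of CDK4 and CDK6, was lower in all 6 samples (-1.25 ± 0.25), as was Rbl1, which encodes p107 (-1.45 ± 0.47). Rbl2, which encodes p130, was at 0.09 ± 0.20, and Rb1 at -0.40 ± 0.41. Cdkn2a, whose locus makes p16 and p19Arf, differed more between populations than between kinds of cells. It was at 14.8, 17.1 and 7.15 CPM for the young populations and 129, 25.5 and 569 CPM for the old Cdkn1a-low cells, against 11.8, 12.5 and 7.30 CPM and 106, 32.5 and 491 CPM in the other cells.

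Chromatin genes that accompany replication were lower. Of 24 measured, 12 were past 1.5-fold lower in all 6 samples, with a median log2 ratio of -1.09. Of all measured genes 2.70% were. Hmgb2, a chromatin protein of dividing cells, stood at -3.58 ± 0.41, H2afz, a histone variant, at -1.22 ± 0.27, and Ezh2, the Polycomb methyltransferase, at -1.19 ± 0.50. Hmgb2, Smc4 and Cbx5 are on this list and on that of the other G2/M genes, so these lists overlap. Genes of ribosome and nucleotide production were lower by a small amount, 12 of 19 in all 6 samples (median -0.34), against 19.6% of all measured genes. Ncl, nucleolin, was at 663, 403 and 670 CPM for the young populations and 1311, 361 and 288 CPM for the old Cdkn1a-low cells, against 729, 615 and 1047 CPM and 1619.9, 423 and 436 CPM in the others. None of the 19 passed 1.5-fold in all 6.

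No gene stood above the other cells by 1.5-fold in all 6 samples, and 11.9% were higher by any amount in all 6. Taken by the smallest of the 6 ratios, the leading ones were Srgap1, Gstm1, Epha7, Mxd4, Fbxl20, Brinp3, Kdm5b, Idh1, Tspan17, Nupr1, Pdcd4 and Psen2. Mxd4, a partner of MAX that opposes MYC, was at 22.0, 71.9 and 56.5 CPM for the young populations and 27.1, 76.4 and 40.9 CPM for the old Cdkn1a-low cells, against 16.3, 39.3 and 15.5 CPM and 15.5, 46.6 and 25.1 CPM in the others. Pdcd4, an inhibitor of translation initiation, was at 0.88 ± 0.38. Kdm5b, a histone H3 lysine demethylase, was at 0.62 ± 0.15, Gstm1, a glutathione transferase, at 0.68 ± 0.27, and Idh1, the cytosolic isocitrate dehydrogenase, at 0.72 ± 0.23. Against Cdkn1a-high cells these genes were not higher throughout, and Srgap1 (-0.15), Mxd4 (-0.08), Kdm5b (-0.16), Tspan17 (-0.07), Nupr1 (-0.24) and Psen2 (-0.28) had mean log2 ratios below 0. Brinp3 (0.54), Epha7 (0.43), Gstm1 (0.18) and Idh1 (0.08) kept ratios above 0, and Fbxl20 (0.01) and Pdcd4 (0.00) were near 0. Against G2/M-positive cells alone, 5 of 7955 genes passed 1.5-fold higher in all 6 samples (0.0629%), namely Mxd4, Srgap1, Kdm5b, Pdcd4 and Calcoco1, the last an autophagy receptor, and 282 passed lower (3.54%).

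Lysosomal and mitochondrial transcripts were slightly higher than in all other cells, but not than in Cdkn1a-high cells. Of 18 measured lysosome genes, 5 were higher in all 6 samples and none lower, with a median log2 ratio of 0.23. In the same comparison 11.9% of all measured genes were higher and 19.6% lower in all 6. Ctsd, cathepsin D, was higher in 5 of 6 samples (0.26 ± 0.21), old replicate 2 being the exception. All but 1 of the 13 protein genes of the mitochondrial genome were higher in all 6 samples (12 of 13, median 0.19). At 5000 UMIs per cell the median mitochondrial share was 2.48%, 3.50% and 3.22% for the young populations and 2.50%, 2.92% and 2.72% in the old Cdkn1a-low cells, against 2.38%, 3.08% and 2.68% and 2.34%, 2.50% and 2.48% in the others. Cdkn1a-high cells had a higher mitochondrial share than Cdkn1a-low cells in all 6 samples, from 2.52% to 3.59%. Against them 0 lysosome genes were higher and 3 of 19 lower (median -0.12), and 0 mitochondrial genes were higher and 2 of 13 lower (median -0.10), where 11.6% of all measured genes were lower and 6.22% higher in all 6 samples. Depth per cell moved with the differences from all other cells, and its part was not tested.

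Set against non-cycling Cdkn1a-high cells, 8 genes were lower by 1.5-fold in all 6 samples. The 8 made up 0.101% of 7906 genes, 0 were past 1.5-fold higher (0.0%), and by any amount 11.6% were lower and 6.22% higher in all 6. The 15 measured G2/M genes outside the rule had a median log2 ratio of 0.00, which the shared G2/M limit of the rule favours. The 8 lower genes were Klhl41, Fibin, Tceal7, Coq8a, Myh1, Wfs1, Pdlim3 and Ldb3. Klhl41, Myh1, Pdlim3 and Ldb3 belong to the sarcomere or its assembly, a grouping made after the values were seen. Of 22 measured sarcomere genes, 16 were lower in all 6 samples and 1 was past 1.5-fold in all of them. Old replicate 3 had a median log2 ratio of -0.24 for these genes, where the remaining 5 samples ranged from -4.97 to -2.90. Of 19 measured myogenic regulators, 8 were lower in all 6 samples (median log2 ratio -0.59). Myh1, a fast myosin heavy chain, was at 21.4, 158 and 19.5 CPM for the young populations and 14.6, 43.2 and 168 CPM in the old Cdkn1a-high cells. In the Cdkn1a-low cells its levels were at most 21.1 CPM except in old replicate 3, where it reached 98.1 CPM.

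Genes of the S-phase list leaned the other way. Of 25 measured, 13 were higher in the Cdkn1a-low than in the Cdkn1a-high cells in all 6 samples and none was lower, with a median log2 ratio of 0.32. Over all measured genes 6.22% were higher and 11.6% lower in all 6. Hells, a chromatin remodeller of S phase, led the genes higher in all 6 by the smallest ratio. It was at 19.7, 13.4 and 35.7 CPM for the young populations and 52.4, 8.01 and 7.56 CPM for the old Cdkn1a-low cells, against 13.0, 8.67 and 24.4 CPM and 36.6, 4.40 and 5.02 CPM in the Cdkn1a-high cells (0.57 ± 0.09). Mcm3, Mcm2, Pclaf, which binds PCNA, Nasp, a histone chaperone, and Pold2, a subunit of DNA polymerase delta, were among the 12 leading genes. Fabp5, a fatty acid carrier, was at 0.57 ± 0.25.

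Some targets of p53 were lower along with Cdkn1a, whose level the rule fixed. Of 19 other measured targets, 7 were lower in all 6 samples against all other cells and 5 against the Cdkn1a-high cells, and none was higher in all 6. Of all measured genes, 19.6% and 11.6% were lower in these comparisons. Mdm2, the ubiquitin ligase that degrades p53, was at 100.3, 43.8 and 56.9 CPM for the young populations and 195, 75.0 and 91.8 CPM for the old Cdkn1a-low cells. The other cells held 178, 55.7 and 72.7 CPM and 344, 154 and 158 CPM, a log2 ratio of -0.69 ± 0.28. Ccng1, cyclin G1, was at -0.28 ± 0.16 and Zmat3, an RNA-binding target of p53, at -0.32 ± 0.33, each lower in all 6 samples. Bax, a pro-apoptotic target, was at -0.20 ± 0.16 and lower in 5 of 6.

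**Figure D3:**
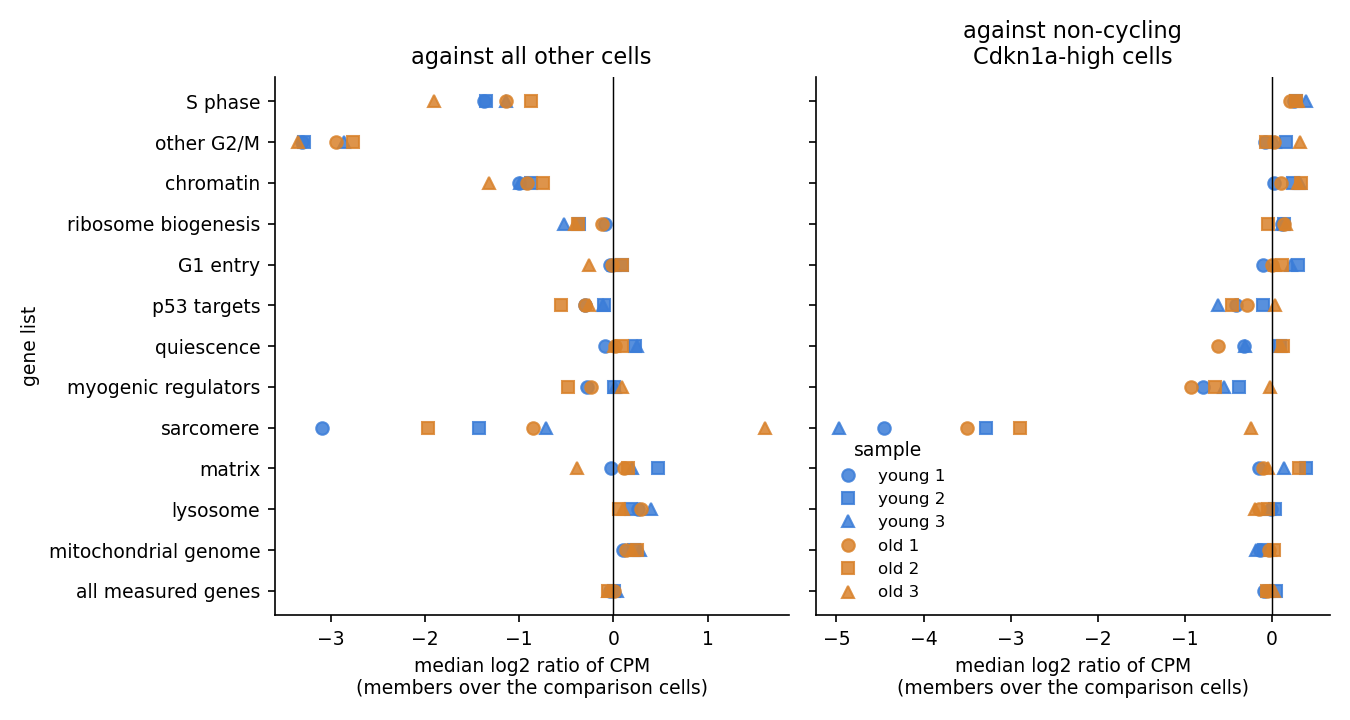
Median log2 ratio of CPM (x axis) of the genes of 12 lists and of all measured genes (y axis) in Cdkn1a-low cells over all other cells (left) and over non-cycling Cdkn1a-high cells (right); each symbol is 1 sample, blue young and orange old, and members means the Cdkn1a-low cells. In the left panel the S-phase, other G2/M and chromatin lists lie below 0 in all 6 samples, and sarcomere genes of old replicate 3 lie at 1.61 where the other 5 samples lie between -3.09 and -0.72.

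Muscle genes set old replicate 3 apart from the other 5 samples. The 26 sarcomere genes together stood at 326, 3220 and 622 CPM for the young populations and 481, 1044 and 37743 CPM for the old Cdkn1a-low cells. The other cells of the same samples held 1601, 5157 and 683 CPM and 594, 2687 and 12411 CPM. Against all other cells, the Cdkn1a-low cells were therefore the poorer in contractile transcripts in 5 samples and the richer in old replicate 3. G2/M-positive cells alone held more than Cdkn1a-low cells in young replicate 1 (547 CPM) and old replicate 2 (1074 CPM). They held less in young replicates 2 and 3 (3006 CPM, 531 CPM) and in old replicates 1 and 3 (456 CPM, 10362 CPM). Cdkn1a-high cells held more than Cdkn1a-low cells in all 6 samples, from 2269 CPM in old replicate 1 to 44506 CPM in old replicate 3. Myog, myogenin, which commits myoblasts to fusion and fibre formation, was at 1.30, 37.2 and 14.9 CPM for the young populations and 0.215, 2.18 and 1804 CPM for the old Cdkn1a-low cells, against 32.7, 356 and 35.0 CPM and 6.38, 179 and 814 CPM in the others. Acta1, skeletal alpha-actin, was at 5093 CPM in old replicate 3 against 1443 CPM in its other cells, and at 2.48 to 83.4 CPM in the remaining 5 samples against 21.7 to 586 CPM.

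Cell by cell, the contractile transcripts of old replicate 3 came from part of the cells. A limit of 50 or more sarcomere UMIs among 5000, chosen after these values were seen, was passed by 782 of the 1963 Cdkn1a-low cells of old replicate 3 (39.8%). In the other samples it was passed by 1, 13 and 1 young and by 1 and 1 old Cdkn1a-low cells, or at most 2.43%. The limit divides a range of levels and does not mark a cell type. Among Cdkn1a-high cells the share was 7.66%, 27.8% and 18.3% for the young populations and 2.52%, 10.8% and 55.0% for the old ones. Myog gave 3 or more UMIs at this depth in 44.8% of the Cdkn1a-low cells of old replicate 3, and in at most 14 cells of any other sample. G2/M-positive cells, where fewer contractile transcripts are usual, passed the sarcomere limit in 20.4% of cases in old replicate 3 and in 0.0700% to 3.71% elsewhere, with median depths of 13750 UMIs and 14119 to 20937.5 UMIs.

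Most cells of old replicate 3 gave no Cdkn1a UMI, its contractile cells included. Over all its eligible cells the median was 0 UMIs per 10000, against 0.731 to 11.6 in the other samples. Among non-cycling cells past the sarcomere limit, the median Cdkn1a level was 23.4, 21.1 and 15.7 UMIs per 10000 for the young populations and 30.3 and 49.8 in old replicates 1 and 2. In old replicate 3 the median was 0, and 751 of 1151 such cells (65.2%) gave no Cdkn1a UMI. Their median depth of 12704 UMIs lay within the range of the other samples, 9908 to 20891 UMIs. Of these cells, 67.9% fell on the Cdkn1a-low side in old replicate 3 and from 0.259% to 4.17% in the remaining 5.

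**Figure D4:**
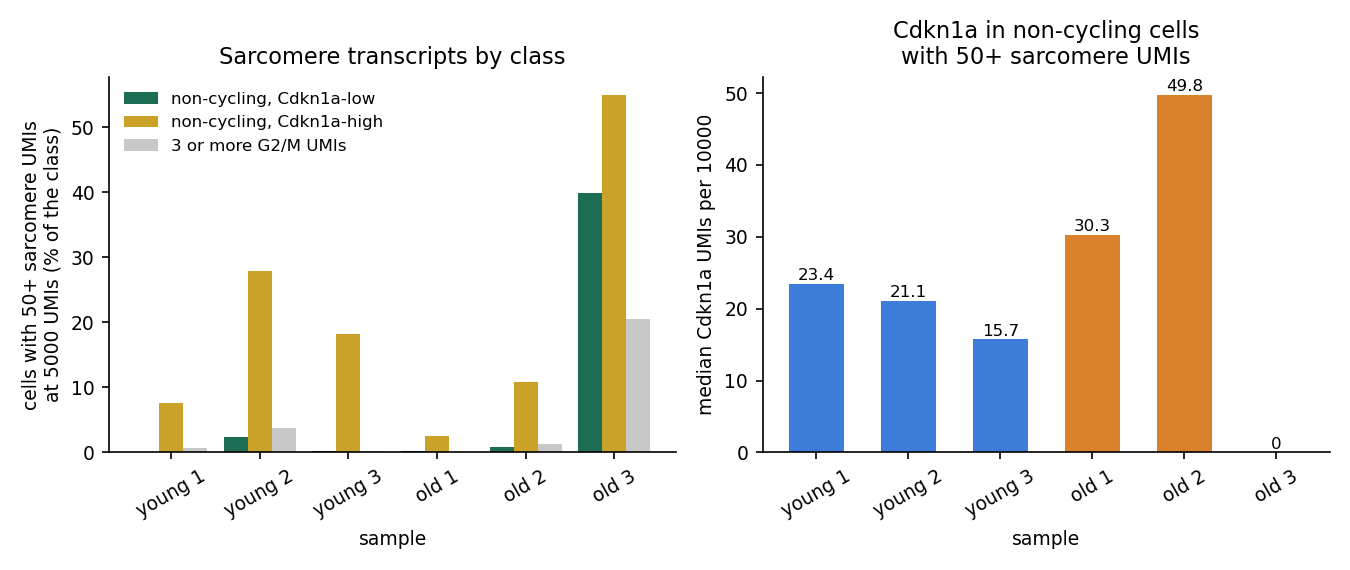
Left, percentage of each kind of cell with 50 or more sarcomere UMIs among 5000 (y axis) by sample (x axis); right, median Cdkn1a UMIs per 10000 in the non-cycling cells past that limit. In old replicate 3, 39.8% of Cdkn1a-low cells pass and the median Cdkn1a of contractile cells is 0, as it is over all cells of that sample, against 15.7 to 49.8 in the other 5 samples.

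The comparison was repeated with the contractile cells left out of both kinds, which by itself lowers the sarcomere sums. The sarcomere genes then summed to 321, 2548 and 605 CPM for the young populations and 410, 1005 and 2547 CPM for the old Cdkn1a-low cells, against 433, 1932 and 473 CPM and 439, 1118 and 2292 CPM in the others. Old replicate 3 still held the most of other muscle genes, at 7362 CPM of the myogenic regulators in its Cdkn1a-low cells against 921 to 4512 CPM in the other 5 samples. The Cdkn1a-low share of the eligible cells became 17.1%, 5.33% and 5.68% for the young populations and 4.33%, 1.38% and 13.0% for the old ones. The number of genes past 1.5-fold lower was 220, of which 211 were among the 215, and 0 were higher. The median log2 ratio of the other G2/M genes was then between -3.35 and -2.68 in the 6 samples (45 measured), against -3.35 to -2.77 with the contractile cells (43 measured), and was nearer 0 in 5 of the 6.

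Quiescence and stem cell genes gave no shared pattern. Of 21 measured genes linked to satellite cell quiescence, 0 were higher and 0 lower in all 6 samples, with a median log2 ratio of 0.12. Over all measured genes 11.9% were higher and 19.6% lower. Pax7, which marks satellite cells, was at 11.6, 73.3 and 0 CPM for the young populations and 12.2, 41.5 and 29.4 CPM for the old Cdkn1a-low cells, against 9.60, 54.5 and 0.0275 CPM and 12.3, 22.5 and 34.1 CPM in the others. The 0 in young replicate 3 allows up to 0.438 CPM at 3 counts of its total. Pax7 was higher in the Cdkn1a-low cells of 3 samples and lower in 2, and young replicate 3 gives no direction. Spry1, an inhibitor of growth factor signalling in resting satellite cells, was at 0.04 ± 0.45, and Notch1 at -0.02 ± 0.44.

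Immune, red cell and endothelial markers were scarce. The 10 immune markers together stood at 1.75 to 9.75 CPM in the Cdkn1a-low cells and 2.54 to 9.04 CPM in the others, and the 6 red cell markers at 0 to 0.645 CPM and 0.0700 to 0.377 CPM. The 8 endothelial markers reached 67.0 CPM in young replicate 2 (59.1 CPM in its other cells) and at most 2.15 CPM elsewhere. The 11 fibroadipogenic markers stood at 304 to 655 CPM against 280 to 510 CPM, and 1 of the 5 measured was higher in all 6 samples (median log2 ratio 0.16). Gsn, gelsolin, was the leading gene of that list in young replicate 1 at 230 CPM. Col1a1 was between 0 and 0.0542 CPM in 5 samples and 4.18 CPM in old replicate 3. Mural markers stood at 11.6 to 128 CPM and tendon markers at 111 to 259 CPM. The myogenic regulator Myod1 was present in every sample, at 39.3, 335 and 44.1 CPM for the young populations and 54.4, 199 and 923 CPM for the old Cdkn1a-low cells. Myf5, another myogenic factor, had 0 counts in the Cdkn1a-low cells of young replicate 1, which allows up to 0.163 CPM.

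Old and young populations were then compared within the Cdkn1a-low cells, which the rule did not do. This comparison cannot tell a difference of the whole population from one particular to these cells, which the interaction below asks. The quasi-likelihood test of edgeR on the summed counts called 0 of 11047 genes at an adjusted p under 0.05 (0.0%), and 303 had an unadjusted p under 0.05. DESeq2 called 68 genes higher and 10 lower in old samples. Among the 4 samples with the longer gene list edgeR called 0 genes, with 634 at an unadjusted p under 0.05. Groups without overlap were found for 349 genes with old samples higher (3.16%) and 147 with old samples lower (1.33%). The spread between populations was wide, at a biological coefficient of variation of 0.454.

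The genes of lowest p were nearly absent from young Cdkn1a-low cells. They were looked at after their values were seen, and their levels in the other cells of the samples are not given here. Alox5, the arachidonate 5-lipoxygenase, was at 0, 0.141 and 0.146 CPM for the young populations and 17.6, 44.4 and 81.1 CPM for the old ones (edgeR adjusted p = 0.0551). Gpx3, a secreted glutathione peroxidase, was at 0, 0.283 and 0 CPM and at 12.2, 72.1 and 43.3 CPM (edgeR adjusted p = 0.0833). Cyba, the p22phox subunit of NADPH oxidases, had 0 counts in all 3 young samples and 2.36, 88.1 and 64.4 CPM in the old ones (edgeR adjusted p = 0.0957). None passed the threshold in edgeR's filtered fit of all 6 samples under the limits of the rule as given. With 0 UMIs of the 10 G2/M genes as the limit edgeR called Alox5 and Gpx3 (adjusted p = 0.0448 for both), and with Cdkn1a under 4 per 10000 it called Alox5 (adjusted p = 0.0391). DESeq2 called all 3 (adjusted p = 6.37e-13, 3.74e-13 and 1.07e-11), and edgeR without the filter on low counts called them too (adjusted p = 0.00428, 0.00575 and 0.00575). Without young replicate 2 or without young replicate 3 edgeR called 4 and 7 genes, Alox5, Gpx3 and Cyba among them each time, and without old replicate 3 it called 0 (243 unadjusted). Leaving out contractile cells also gave 4 calls, these 3 and Fgf13. edgeR gave 0 calls with a limit of 5 UMIs of the 10 genes or of Cdkn1a under 1 per 10000. It gave 0 from 10000 UMIs, under 10% mitochondrial UMIs and with the rule at 5000 UMIs. It also gave 0 without the deepest 10% of cells, without Cdkn1a-low cells high in S-phase genes and without the gene list term. Other size factors, a replicate block, and leaving out young replicate 1, old replicate 1 or old replicate 2 gave 0 calls too.

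The neighbouring genes Cdkn2a and Cdkn2b differed in opposite directions, short of the threshold. Cdkn2a was higher in every old than in every young sample (values above, log2 fold change 4.15, SE 1.33, edgeR adjusted p = 1.0, and 0.00811 with DESeq2 to 1.0 over the alternatives). Its size rested on old replicate 3, without which the Cdkn2a log2 fold change was 1.86 (SE 0.66). Cdkn2b, which encodes p15, was lower in every old sample, at 119, 70.5 and 79.5 CPM for the young populations and 49.2, 8.73 and 20.3 CPM for the old Cdkn1a-low cells (log2 fold change -1.95, SE 0.39, edgeR adjusted p = 0.981, and 0.00280 with DESeq2 to 1.0 over the alternatives). Cdkn1b, Cdkn1c, Cdkn2c, Cdkn2d, Rb1, Rbl1 and Rbl2 overlapped between the groups. Of the other presets, Pax7, Myf5, Myod1, Myog, Ly6a and Cd34 overlapped as well.

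edgeR called no p53 target between old and young Cdkn1a-low cells, and DESeq2 called Pmaip1 (adjusted p = 0.000125). Of 24 tested, 6 had all old samples above all young ones, namely Pmaip1, Phlda3, Btg2, Ei24, Fas and Ddit4l, where 3.16% of all tested genes had old samples higher without overlap and 1.33% lower. Pmaip1, which encodes the pro-apoptotic protein Noxa, was at 1.19, 4.66 and 5.25 CPM for the young populations and 16.3, 16.0 and 52.6 CPM for the old ones (log2 fold change 3.14, SE 0.54, edgeR adjusted p = 0.763, and 2.47, SE 0.57, without old replicate 3). Phlda3, an inhibitor of AKT signalling, was at 186, 168 and 288 CPM and at 318, 374 and 434 CPM. Cdkn1a itself was capped by the rule, and its values overlapped between the groups (log2 fold change -0.38, SE 0.66, edgeR adjusted p = 1.0). Among 18 tested secreted factors, Ccl7 and Igfbp4 had all old samples higher and Tgfb1 all old samples lower, at 42.0, 38.3 and 44.3 CPM for the young populations and 32.5, 21.1 and 19.5 CPM for the old ones. edgeR called 0 of the 18, and 8 had an unadjusted p under 0.05, as had 303 of all 11047 tested genes. Of this list DESeq2 called Ccl7, Igfbp3 and Igfbp6 higher in old samples (adjusted p = 0.0436, 0.0197 and 0.0436).

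**Figure D5:**
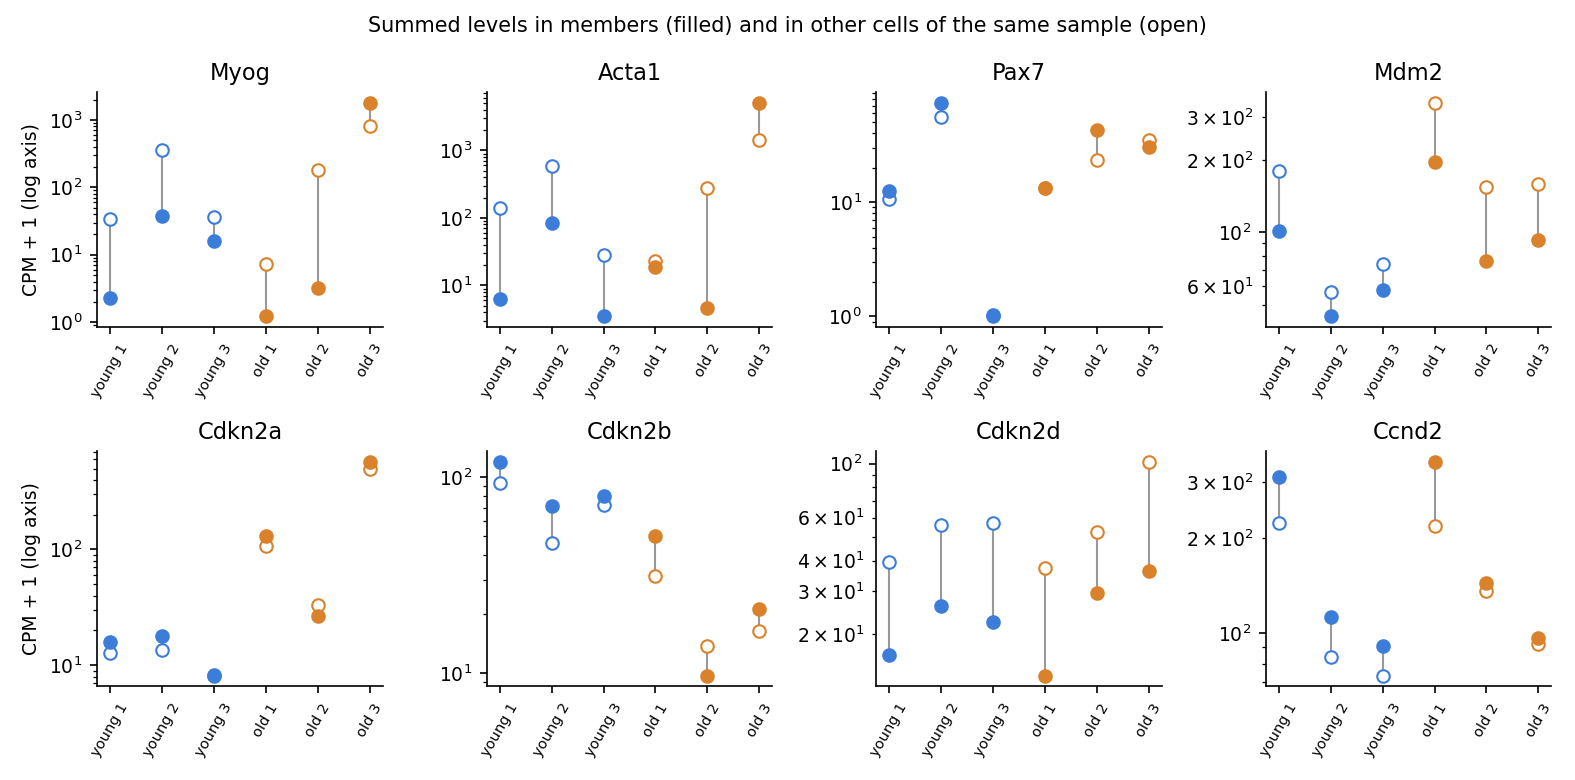
Summed level of 8 genes (y axis, CPM + 1, log axis) in Cdkn1a-low cells (members, filled) and in the other cells of the same sample (open), for each sample (x axis, blue young, orange old). Cdkn2d and Mdm2 are lower in Cdkn1a-low cells in all 6 samples, and Myog and Acta1 are higher in old replicate 3 only among these samples.

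Whether the difference between Cdkn1a-low and other cells changed with age was tested as an interaction. edgeR called 0 of 14153 genes (0.0%), with 474 at an unadjusted p under 0.05, and DESeq2 called 0 with 177 unadjusted. edgeR also called 0 without old replicate 3 (360 unadjusted) and without the contractile cells of all samples (296 unadjusted). With a block for the replicate number and all 6 samples it called 7 genes, all with a larger ratio in old samples. Tnni2 had the lowest p (edgeR adjusted p = 3.62e-06). The labels do not say that the number marks a pairing. Without old replicate 2, 34 genes were called, all with a larger ratio in old samples, among them the muscle genes Myoz2, Actn2, Myh7, Myh8 and Sln. The cause was not tested.

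By the variance over the mean, the Cdkn1a-low cells of a sample varied most among themselves in abundant transcripts common to the samples and in scarce ones of single samples. In old replicate 3 abundant sarcomere transcripts were added to these. At an equal relative spread this measure rises with the mean, so it favours abundant transcripts. At 5000 UMIs per cell the variance over the mean was close to that of counting alone for the typical gene, with a median between 1.06 and 1.10 over the genes with a mean of 0.1 UMI or more. Fth1, Ftl1, Spp1, Tmsb4x and mt-Atp6 were among the 30 most variable genes in all 6 samples. Spp1, the secreted matrix protein osteopontin, had a ratio of 54.8, 48.3 and 13.5 for the young populations and 43.8, 37.2 and 57.8 for the old ones, at means of 63.6, 9.33 and 24.6 and 23.2, 39.1 and 31.7 UMIs. In the other cells its ratio was 44.6, 6.70 and 10.2 and 32.6, 19.9 and 34.1, lower in every sample. The Spp1 means of those cells, which also bear on the ratio, are not given here. Scarce transcripts found in few cells ranked high as well, such as Cck in old replicate 1 (mean 0.753 UMI, ratio 37.3, found in 11.0% of cells) and Lce1g in young replicate 2 (mean 0.146 UMI, ratio 38.8, found in 0.936%), which were picked out after their values were seen. In old replicate 3 the leading gene was Mylpf, a fast-fibre myosin light chain, at a ratio of 123 and a mean of 56.0 UMIs. Acta1, Myl4, Tnnc1, Myl1 and Tnnc2 also ranked high there, at means of 21.8, 10.7, 14.8, 7.83 and 6.22 UMIs.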

How the data were processed

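The authors deposited 1 matrix of UMI counts per gene and barcode for each of the 6 samples, made with Cell Ranger 7.0.0 (young and old replicate 1) or 7.2.0 (the others), per the file headers. The submitters' processing notes name Cell Ranger 7.2.0 and the genome build mm10. Whether intronic reads were counted and how cells were called is not given in the sources used here. The 7.0.0 files list 21849 genes and the others 32285, of which 21485 IDs are shared and were used. Counts were summed by kind of cell and sample. The age fit used edgeR 4.0.16 (R 4.3.3) with filterByExpr, TMM scaling, the quasi-likelihood test, a term for the gene list and Benjamini-Hochberg adjustment at 0.05, and DESeq2 1.42.0 was an alternative. The interaction fit used the same tools. Single values were compared with an exact permutation test computed in Python 3.11.15. Except for Cdkn1a and total UMIs, cells were thinned to 5000 UMIs where per-cell values are compared. Per-cell Cdkn1a values used all UMIs of a cell, so shares of cells with no Cdkn1a UMI are compared at unequal depth. No doublet caller was run, and an alternative left out the deepest 10% of cells. The scripts were tested on simulated data.

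The members and gene lists were chosen with earlier results of these data known. The genes named against the other cells are the 12 in each direction with the largest smallest-of-6 log2 ratio, plus leading genes of each list and preset age genes. Alternatives changed the limits of the rule, thinning, filters, scaling and the samples used. CPM comes from 3′ tags, and levels are not compared between genes. An allowance of 3 counts at 0 covers counting error only.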

Additional observations from a re-analysis of the deposited data

How the results depend on the processing

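The difference in the Cdkn1a-low share (-1.87 points) became 0.792 with Cdkn1a under 1 per 10000 and -5.36 with Cdkn1a under 4 per 10000. It was -0.804 with 0 UMIs of the 10 genes, -3.13 without contractile cells and 3.38 in the samples of the longer gene list. When 1 sample was left out it ranged from -6.30 to 1.92. The labels do not say whether the replicate numbers pair the samples. Deviations from the group mean correlated at 0.480, 0.226 and -0.10 for same-numbered samples and at -0.483 to 0.330 for the others. Deviations within groups of 3 sum to 0, so these values do not settle whether samples are paired. With the rule applied at 5000 UMIs the share difference was -0.46. With a replicate block the share difference was -1.87 (exact p = 0.75), the age test called 0 genes and the interaction 7. Genes per cell differed by 24.7 at 5000 UMIs (old minus young, exact permutation p = 0.9). They differed by -24.5 without thinning and by -63.8 to 97.3 when 1 sample was left out. The age test called 2 genes with 0 UMIs of the 10 genes, 1 with Cdkn1a under 4 per 10000, 4 without a filter on low counts, 4 without contractile cells (an alternative chosen after seeing the data), 78 with DESeq2 and 0 to 7 when 1 sample was left out, and the interaction 0 to 34. Genes past 1.5-fold higher numbered 2 with Cdkn1a under 4 per 10000, 5 against G2/M-positive cells and 0 to 4 when 1 sample was left out. Lower genes numbered 8 against Cdkn1a-high cells, 328 from a mean of 1 CPM, 124 at 2-fold and 212 to 261 when 1 sample was left out. With all samples the difference was 0.0 in S-phase UMIs, -0.353 in mitochondrial share and -757 in UMIs per cell. Leaving 1 sample out gave ranges of -0.833 to 0.833, -0.647 to -0.137 and -1402.5 to -128.7 for these. Against Cdkn1a-high cells 15 named genes changed sign, with log2 ratios of -0.15 (Srgap1), -0.0813 (Mxd4), -0.16 (Kdm5b), -0.0742 (Tspan17), -0.24 (Nupr1), -0.28 (Psen2), 0.53 (Ccna2), 0.20 (Esco2), 0.0828 (Depdc1a), 0.11 (Kif15), 0.32 (Cenpe), 0.10 (Ccnb1), 0.36 (Nuf2), 0.24 (Aurka) and 0.48 (Nusap1). The cause was not tested. Old replicate 2, with 112 Cdkn1a-low cells, limits what low genes can show.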

Other observations

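Other gene groups were set against the other cells of the same sample. Of all measured genes, 11.9% were higher and 19.6% lower in all 6 samples. Of 4 measured interferon genes 2 were higher in all 6 samples (median log2 ratio 0.27). Of 19 matrix genes 1 was higher (0.14), of 24 nuclear genes of oxidative phosphorylation 7 were higher and 1 lower (0.08), and of 15 stress genes 4 were higher and 1 lower (0.14). Of 10 immediate early genes 0 were higher and 1 lower (0.03), and of 19 glycolysis and hypoxia genes 3 were higher and 1 lower (0.03). Of 19 myogenic regulators 0 were higher and 1 lower (-0.10). Of 15 contractile targets of SRF 0 were higher and 0 lower (-0.05), and of 15 secreted factors 0 were higher and 1 lower (-0.01). Summed markers of Schwann cells stood at 1.14 to 27.8 CPM in the Cdkn1a-low cells and those of epithelium at 2.76 to 30.8 CPM.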
